A study of Mus musculus with 8 samples.

Results

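Immediate early and AP-1 genes were followed in AE9a-driven mouse leukaemia as 10 named genes, Jun, Junb, Jund, Fos, Fosb, Atf3, Egr1, Ier2, Dusp1 and Zfp36, chosen by symbol out of 52459 gene rows. All 10 were found in the deposited tables. AE9a is a truncated product of the RUNX1-RUNX1T1 fusion that causes acute myeloid leukaemia in mice. Each of the 8 RNA-seq libraries came from AE9a+ cells of the spleen of 1 moribund C57BL/6J mouse. All groups share the genotype RTA shTet2: cKit+ marrow cells carried a retrovirus with AE9a and a hairpin against Tet2, the 5-methylcytosine dioxygenase, that doxycycline (DOX) turns on. The groups were 2 secondary recipients kept on DOX and given ascorbate (ASC, mice 28 and 30), 2 secondary recipients taken off DOX and given PBS, labelled Tet2 restored (mice 21 and 23), 1 primary recipient on a DOX diet (mouse 12), and 3 secondary recipients kept on DOX and given PBS (mice 16, 17 and 19). The primary recipient was lethally irradiated at 6 to 8 weeks of age. Both transplants used 50000 leukaemic cells with 500000 support marrow cells, so recipients also held marrow cells without AE9a. The leukaemia model therefore carries the hairpin in every group, and in the mice labelled Tet2 restored the loss of doxycycline cannot be told apart from the return of Tet2. The ascorbate dose, the recipients' age in the secondary transplant, and whether the secondary mice received cells of 1 or several primary mice are not given in the sources used here.

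Immediate early genes are transcribed within minutes of a signal, without new protein synthesis, because the factors that switch them on are already in the cell. Jun and Fos proteins join through leucine zippers into the dimeric factor AP-1, which binds DNA at sites close to TGANTCA; Jun proteins can also pair with each other, whereas Fos proteins need a Jun partner. The same signals induce their own brakes, among them the phosphatase DUSP1, which switches off the MAP kinases, and the RNA-binding protein ZFP36, which leads AU-rich messengers to decay. In blood cells AP-1 factors take part in myeloid differentiation and in responses to growth factors and stress, and transcripts of this class are also known to rise while tissue is taken apart.

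Total counts ran from 18.1 M (mouse 28, ascorbate) to 34.2 M (mouse 12, primary). Mitochondrial genes took 17.1% and 9.73% of counts in ascorbate mice 28 and 30, 9.49% and 14.5% in restored-labelled mice 21 and 23, 5.16% in primary mouse 12, and 9.09% to 11.4% in the PBS knockdown mice. Tet2, the hairpin's target, stood at 14.1 CPM in the library labelled Tet2 restored from mouse 21 and at 23.1 CPM in that from mouse 23, at 13.8 and 11.7 CPM in ascorbate mice 28 and 30 and at 9.26 CPM in the primary mouse, against 12.6, 12.8 and 13.4 CPM in PBS knockdown mice 16, 17 and 19. CPM values here are counts over library totals scaled by the trimmed mean of M values (TMM). The Tet2 level of mouse 21 was thus close to the knockdown mice, and directions drawn from the restored label rest on libraries of unequal Tet2 level. Among 8 progenitor markers, Kit lay between 54.5 and 206 CPM and Runx1t1, a partner of the fusion, between 101 and 304 CPM, while Elane and Cd33 stayed under 1 CPM in every library. Whether reads of the AE9a retrovirus were counted as Runx1t1 was not tested. Prtn3, a granule protease gene, had 8.19 and 7.53 CPM in ascorbate mice 28 and 30, 5.73 and 8.79 CPM in restored-labelled mice 21 and 23 and 1.19 CPM in the primary mouse, against 1.82, 2.87 and 2.73 CPM in PBS knockdown mice 16, 17 and 19; it passed as higher under ascorbate (log2 fold change 1.66, SE 0.32, edgeR adjusted p 0.0356). Cd34 had 19.8 CPM in the primary mouse and at most 2.70 CPM elsewhere, and Mpo at most 6.33 CPM. The log2 fold change of a gene fell with its transcript length in the secondary comparisons (Spearman's rho across genes −0.22 under ascorbate and −0.37 for the restored label, both over PBS knockdown, and −0.22 for the restored label over ascorbate, in 11488 genes that are not independent replicates), whereas it rose with length in the primary comparison (0.31 in 11663 genes). Genes in the shortest length quartile had a median log2 fold change of 0.16 under ascorbate and 0.26 for the restored label over PBS knockdown, 0.12 for the restored label over ascorbate and −0.18 for the primary mouse.

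Promoters are shown for the searched members with the widest range over the 8 libraries, and for Junb with a narrow one. The highest over the lowest CPM was 22.0 for Fosb, 15.3 for Fos, 12.9 for Dusp1 and 5.50 for Jun, and 2.11 for Junb. The promoters are the 250 bases before the RefSeq start, 5′ to 3′ on the gene's strand, on GRCm38.p6. Of the 10 members, 8 were in the set of promoters searched. Ier2 and Egr1 were not in this set and are named only. Whether RefSeq holds a start for them was not tested. Capitals mark TGACGTCA, the full cyclic AMP response element, its core TGACG, which the full element contains, or TGACATCA, the AP-1-like site known from the JUN promoter. The Jun sequence is chr4:95052223-95052472 (minus strand), Junb chr8:84978749-84978998 (minus), Fos chr12:85473640-85473889 (plus), Fosb chr7:19310046-19310295 (minus) and Dusp1 chr17:26508473-26508722 (minus).
Jun: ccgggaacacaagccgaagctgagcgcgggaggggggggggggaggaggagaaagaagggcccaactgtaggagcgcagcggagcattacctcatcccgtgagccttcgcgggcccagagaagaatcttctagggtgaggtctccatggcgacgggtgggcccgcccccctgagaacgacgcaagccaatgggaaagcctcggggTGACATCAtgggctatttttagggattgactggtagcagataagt
Junb: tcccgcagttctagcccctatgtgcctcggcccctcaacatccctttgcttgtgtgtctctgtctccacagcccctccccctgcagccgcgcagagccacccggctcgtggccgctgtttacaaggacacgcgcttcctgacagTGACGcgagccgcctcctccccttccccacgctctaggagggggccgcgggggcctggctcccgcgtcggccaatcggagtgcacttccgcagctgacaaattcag
Fos: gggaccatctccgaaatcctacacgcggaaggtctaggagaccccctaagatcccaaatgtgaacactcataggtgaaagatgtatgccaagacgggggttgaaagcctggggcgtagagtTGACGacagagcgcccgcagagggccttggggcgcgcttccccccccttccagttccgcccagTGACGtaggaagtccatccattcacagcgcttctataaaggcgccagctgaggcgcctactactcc
Fosb: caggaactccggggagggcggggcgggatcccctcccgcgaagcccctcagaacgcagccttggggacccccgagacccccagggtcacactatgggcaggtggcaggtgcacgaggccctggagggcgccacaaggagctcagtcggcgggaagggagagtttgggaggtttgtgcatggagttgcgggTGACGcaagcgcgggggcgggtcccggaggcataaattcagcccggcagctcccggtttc
Dusp1: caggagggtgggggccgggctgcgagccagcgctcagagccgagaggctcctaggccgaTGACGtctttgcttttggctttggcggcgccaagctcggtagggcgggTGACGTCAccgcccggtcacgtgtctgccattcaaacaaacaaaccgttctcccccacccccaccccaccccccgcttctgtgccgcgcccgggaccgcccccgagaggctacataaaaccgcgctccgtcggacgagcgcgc
The Jun promoter held TGACATCA at −45 to −38 relative to the start. This motif was added to the search after the sequence had been read. It occurs in 2.93% of the 32851 mouse promoters of this length that were searched, a set without those of Ier2 and Egr1. Dusp1 carried the full element TGACGTCA, which 1.55% of these promoters hold, at −143 to −136, and a further TGACG at −191 to −187. Fos carried TGACG at −129 to −125 and again at −66 to −62, and TATAAA at −33 to −28. The core TGACG, searched on both strands like every motif, was found in 5 of the 8 member promoters (Fos, Fosb, Dusp1, Junb and Atf3), against 17.8% of all. The consensus TGANTCA was in 0 of 8, against 6.75%. The serum response element core known as the CArG box was in 1 of 8, that of Zfp36, against 1.47%. GCGNGGGCG, the EGR1 site, was found in Fosb and Zfp36, against 4.70%. CCGGAA, an ETS core, was found in Zfp36, against 12.0%. These matches describe letters only, and Junb, with its narrow range, holds the same core TGACG as Fosb. Bases further upstream were not searched, so a motif missing here may still lie near the gene. The Jund bases searched ended at 70697738 on chromosome 8, before its annotated gene start at 70698949.

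Per unit of transcript length, the Jun genes and Ier2 had the highest medians. The median FPKM over the 8 libraries, the authors' length-scaled level, was 89.7 for Jund, which is broadly expressed in resting cells, 35.5 for Junb and 27.7 for Jun. Ier2, a short nuclear regulator, stood second of the 10 at 59.9 FPKM. Dusp1 (12.4) and Zfp36 (12.0) lay next to each other, then Fosb (7.04), Fos (6.76) and the zinc finger factor Egr1 (5.40). Each pair of neighbours in this order overlapped across libraries except Egr1 and Atf3, and the full order did not hold in every library. Ranked within each library, Jund took place 1 or 2, Ier2 places 1 to 3 and Jun place 4 or 5. Fos reached place 2 in primary mouse 12, at 54.0 FPKM, against 41.0 for Jun and 24.1 for Junb. Atf3, a stress-induced partner of Jun, was last in every library, at 0.14 FPKM, and stayed under 1 CPM throughout. It still passed the filter on low counts, as did the other 9 genes.

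The make-up of the AP-1 subunit pool differed between libraries. Fos and Fosb together made up 5.54% and 3.38% of the summed FPKM of 6 subunits (Jun, Junb, Jund, Fos, Fosb, Atf3) in ascorbate mice 28 and 30, and 6.15% and 4.99% in restored-labelled mice 21 and 23. They made up 38.7% in primary mouse 12, and 10.3%, 16.0% and 19.3% in PBS knockdown mice 16, 17 and 19. For this joint share neither arm overlapped the PBS knockdown mice, and the primary mouse lay above all of them. The Fos share alone did overlap. It was 3.35% in PBS mouse 16, within the 2.39% to 3.44% of the ascorbate and restored-labelled mice, and 8.33% and 8.10% in PBS mice 17 and 19. The Fosb share stayed apart, at most 3.28% in the 2 arms and at least 6.92% in the PBS mice. How often other gene sets separate in this way was not tested. Jund and Junb together made up 84.5% and 91.5% under ascorbate, 76.7% and 79.6% in the restored-labelled mice, 42.9% in the primary mouse and 67.4% to 69.0% in the PBS knockdown mice. The FPKM of Jun over that of Junb, which can oppose Jun's activity, was 0.315 and 0.213 under ascorbate, 0.719 and 0.914 in the restored-labelled mice, 1.70 in the primary mouse and 0.683, 0.799 and 0.712 in the PBS knockdown mice.

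**Figure D1:**
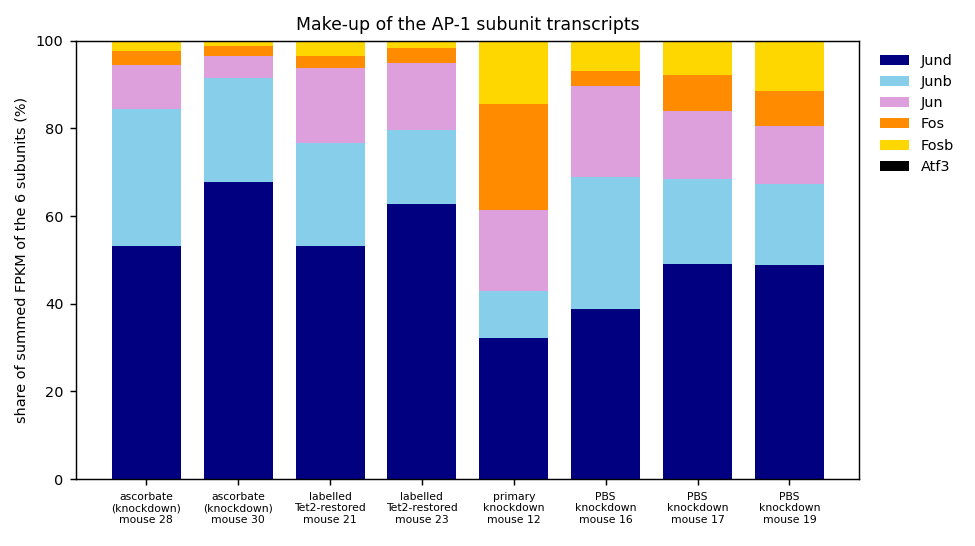
Share of the summed FPKM (%, bars stacked to 100) taken by each of 6 AP-1 subunit genes in each library, 1 bar per mouse, grouped as ascorbate, labelled Tet2-restored, primary knockdown and PBS knockdown. Fos and Fosb take 38.7% in the primary mouse, 3.38% to 6.15% in the ascorbate and restored-labelled mice and 10.3% to 19.3% in the PBS knockdown mice, while Atf3 is too low to be seen.

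Several members varied widely among the 3 PBS knockdown mice themselves. Egr1, which responds to growth factor signals, had 10.9, 62.2 and 12.5 CPM in mice 16, 17 and 19, so that 1 mouse stood apart from the other two. Its SD of log2 CPM, 1.37, was larger than that of 99.6% of 13024 genes, whose median was 0.19. Fos, at 8.31, 44.1 and 31.9 CPM, had an SD of 1.24, larger than that of 99.5% of genes. Fosb, Jund and Dusp1 each had a larger SD than 97.5% to 97.7% of genes, whereas Junb (70.3%), Ier2 (76.6%) and Zfp36 (81.1%) were less extreme. Mouse 16 was the lowest of the 3 for Fos, Fosb, Egr1, Dusp1, Jund, Ier2, Jun and Atf3, and mouse 17 the highest for 8 of the 10 genes. All p-values below measure differences against the spread between single mice.

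**Figure D2:**
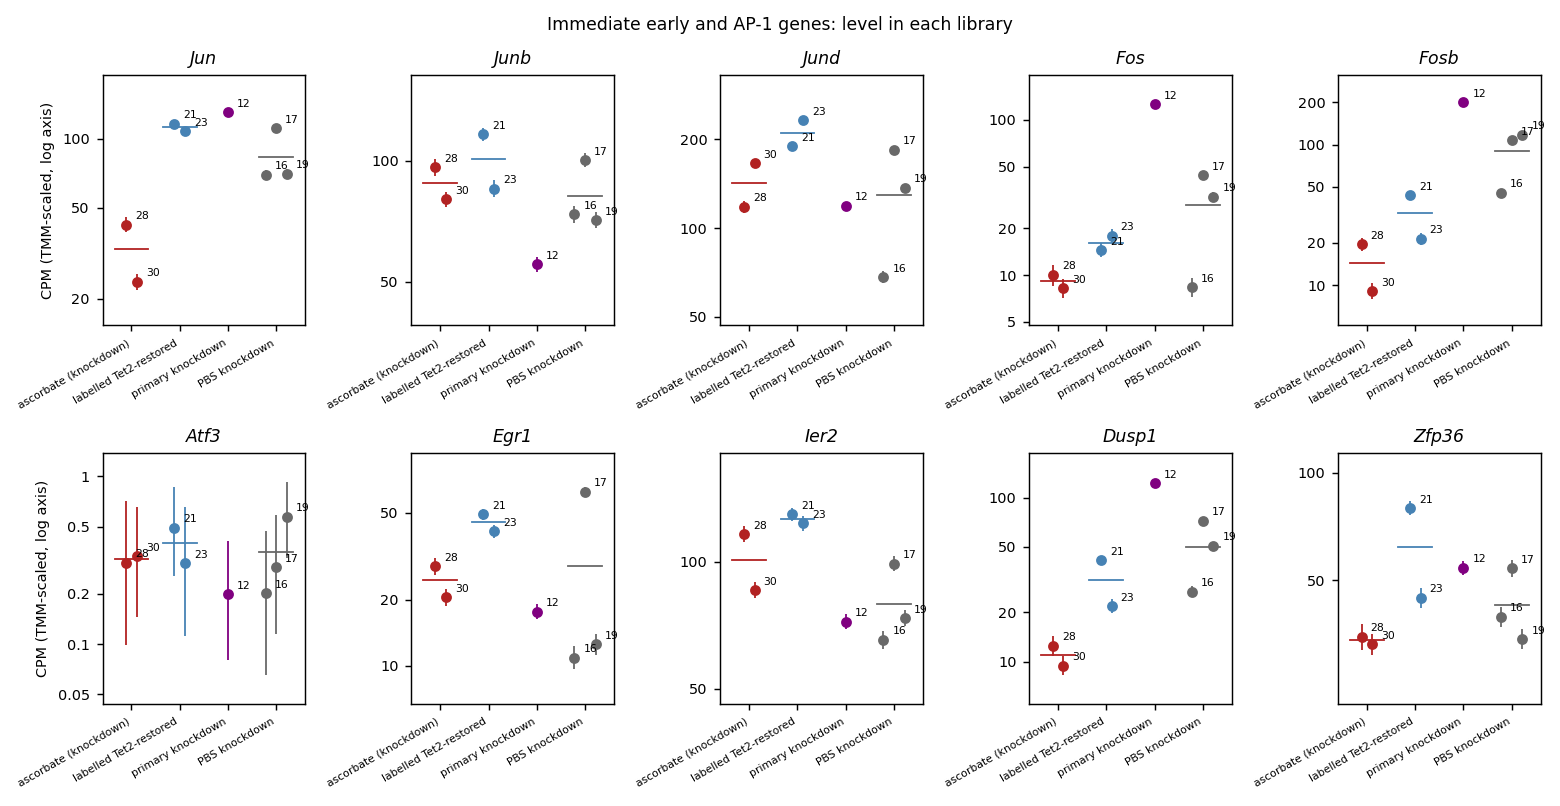
Level of each of the 10 genes in each library, in CPM on TMM-scaled totals (log axis), with 95% Poisson intervals of counting error and group means as horizontal lines. Numbers are mouse numbers; Jun, Fosb and Dusp1 lie lower in both ascorbate mice (red) than in all 3 PBS knockdown mice (grey), and Fos, Fosb, Dusp1 and Jun are highest in primary mouse 12.

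Ascorbate was compared with PBS under sustained knockdown. Jun and Dusp1 fell, Fosb was lower by the largest fold but just missed the threshold, and Junb, Jund and Ier2 had small positive values. Of the 10 genes, 2 passed an adjusted p of 0.05 and both were lower, beside 2.86% of 12137 genes tested that passed in either direction and 1.77% that passed as lower (edgeR's quasi-likelihood test, Benjamini-Hochberg adjustment over all genes). The ranges did not overlap for 3 genes, Jun, Fosb and Dusp1, all lower, a pattern seen in 23.5% of all genes. An unadjusted p under 0.05 was reached by 4 genes, again all lower (Jun, Fos, Fosb and Dusp1), against 12.9% of all genes. DESeq2 and limma voom each called 3 genes, Jun, Fosb and Dusp1, where DESeq2 called 12.5% of the 10722 genes to which it gave an adjusted p and limma voom 9.1% of 12137. The members' median log2 fold change was −0.28, against −0.012 over all genes, and 7 of the 10 were negative. Dropping single libraries moved this median in both directions. It was weakest, at −0.21, when PBS mouse 17 was dropped. Dropping PBS mouse 16 gave −0.52, and dropping PBS mouse 19 gave −0.58, the strongest value, over the 9 members then tested. In bulk RNA, fewer cells of a type and less RNA per cell cannot be told apart, here or in the other comparisons.

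Jun, the transactivating core of AP-1 (chromosome 4, 95049034 to 95052222, GRCm38, a single exon), had 42.0 and 23.7 CPM in ascorbate mice 28 and 30, against 69.6, 111 and 70.2 CPM in PBS knockdown mice 16, 17 and 19. Both ascorbate values lay below every PBS value. Its level was 0.390 times that of the PBS mice (log2 fold change −1.36, SE 0.29, edgeR adjusted p 0.0439). Junb (chromosome 8, 84974484 to 84978718) had 96.2 and 80.1 CPM under ascorbate, against 73.5, 100.1 and 71.2 CPM (log2 fold change 0.10, SE 0.21). Jund (chromosome 8, 70698949 to 70700616) had 118 and 166 CPM under ascorbate, against 68.2, 184 and 137 CPM (log2 fold change 0.13, SE 0.36). The groups overlapped for both, and neither value exceeded its SE. Junb shares exonic bases with Prdx2 on the other strand, a gene with 121320 counts over the 8 libraries, so its level may hold reads of both. Jun was the one of the 3 Jun genes to pass; the difference between Jun and its relatives was not tested.

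Fosb, which pairs with Jun proteins (chromosome 7, 19302696 to 19310051), had 19.5 and 9.12 CPM under ascorbate, against 45.6, 107 and 117 CPM in the PBS knockdown mice. Its ranges were apart, at a log2 fold change of −2.67 (SE 0.55), with an edgeR adjusted p of 0.0509. DESeq2 (adjusted p 0.00124) and limma voom (0.0353) placed it past the threshold. Fos, the founding partner of Jun (chromosome 12, 85473890 to 85477273), had 10.02 and 8.24 CPM under ascorbate, against 8.31, 44.1 and 31.9 CPM. Mouse 16 was as low as the ascorbate mice, so the ranges overlapped (log2 fold change −1.63, SE 0.61, edgeR adjusted p 0.164). Atf3 had 5 to 16 counts per library, at which no difference was detectable; DESeq2 gave it no adjusted p.

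Dusp1, the phosphatase that switches off p38, JNK and ERK (chromosome 17, 26505590 to 26562128), had 12.5 and 9.45 CPM under ascorbate, against 26.6, 72.4 and 50.8 CPM in the PBS knockdown mice. The ranges did not overlap, and the level was 0.218 times that of the PBS mice (log2 fold change −2.20, SE 0.45, edgeR adjusted p 0.0448). In the annotation Dusp1 shares exonic bases with Ergic1 on the other strand, and without a stated strand setting reads of the pair cannot be told apart; Ergic1 itself had a log2 fold change of 0.11 (edgeR adjusted p 0.704). Zfp36, the brake on AU-rich messengers (chromosome 7, 28376784 to 28380253), had 34.7 and 33.0 CPM, against 39.5, 54.1 and 34.1 CPM (log2 fold change −0.34, SE 0.27). Ier2 (chromosome 8, 84661331 to 84662852) had 116 and 85.7 CPM, against 65.4, 99.1 and 73.6 CPM (0.34, SE 0.20), and Egr1 28.4 and 20.6 CPM, against 10.9, 62.2 and 12.5 CPM (−0.23, SE 0.73). None of these 3 passed, and their groups overlapped.

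The calls of Jun and Dusp1 lay close to the threshold and rested on all 5 libraries of the 2 groups. Of all genes, 347 passed under ascorbate, against 5, 87 and 15 without PBS knockdown mouse 16, 17 and 19. Without mouse 28 the edgeR adjusted p was 0.102 for Jun and 0.201 for Dusp1, without mouse 30 it was 0.157 and 0.163, without mouse 16 it was 0.108 and 0.0573, without mouse 17 it was 0.0707 and 0.0676, and without mouse 19 it was 0.0860 and 0.117, all for Jun first and Dusp1 next. The log2 fold change stayed negative throughout, between −1.82 and −1.01 for Jun and between −2.50 and −1.84 for Dusp1. An offset for transcript length and GC content called Jun, Fosb and Dusp1 and gave negative values for all 10 genes, so the positive signs of Junb, Jund and Ier2 did not hold under it. The sign of Egr1 turned to 1.05 without mouse 17 (edgeR adjusted p 0.0682).

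**Figure D3:**
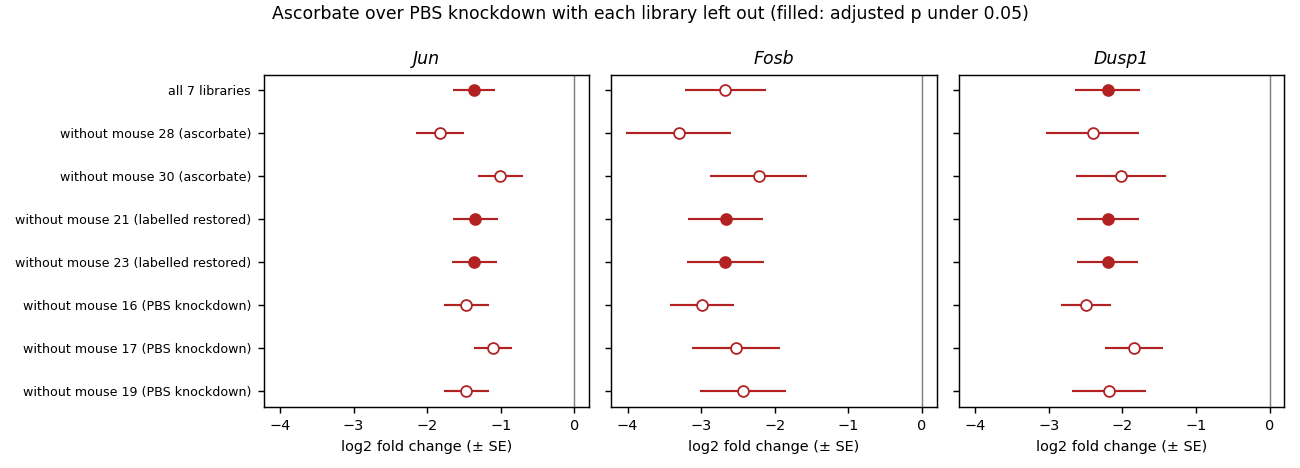
Log2 fold change (± SE) of Jun, Fosb and Dusp1, ascorbate over PBS knockdown, with all 7 secondary libraries and with each left out in turn; filled points have an adjusted p under 0.05. All values stay below 0, and Jun and Dusp1 pass with all libraries and without either restored-labelled mouse, but not without any 1 ascorbate or PBS knockdown mouse.

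Markers of other cell types were compared between the same groups. Whether the AE9a+ cells themselves or other spleen cells expressed them was not tested. The 16 macrophage and monocyte markers summed to 36.3 to 37.5 CPM under ascorbate, against 61.0 to 101 CPM in the PBS knockdown mice; 14 of 15 tested were lower and 3 passed (Vcam1, Mertk and Mrc1, with Marco under 1 CPM in every library). The 9 mast cell and basophil markers summed to 804 to 1116 CPM under ascorbate, against 478 to 620 CPM, with all 9 higher and 2 past the threshold (Cma1 and Il4). Of all 12137 genes, 1.77% passed as lower and 132 genes as higher. Without PBS knockdown mouse 16, 17 or 19, the genes passing in either direction numbered 5, 87 and 15. Neutrophil markers summed to 8.37 to 13.3 CPM under ascorbate, against 1.25 to 8.95 CPM. The 10 T and NK cell markers, of which 9 stayed under 1 CPM in every library, summed to 5.77 to 6.11 CPM under ascorbate, against 1.78 to 3.87 CPM. The remaining one, Nkg7, had 3.42 and 5.19 CPM, against 0.565, 0.739 and 2.29 CPM (log2 fold change 1.83, SE 0.57, edgeR adjusted p 0.104). The 10 endothelial and stromal markers summed to 17.2 to 34.2 CPM, against 7.51 to 25.03 CPM; 3 (Col3a1, Pdgfrb and Pdgfra) were at 0 counts in all libraries, and Dcn had 13.4 and 29.4 CPM, against 14.5, 3.65 and 16.5 CPM. Of 4 tested endothelial and stromal markers 3 were negative and none passed. The 10 erythroid markers summed to 5691 to 10164 CPM, against 5480 to 12930 CPM, with 8 negative. The 8 B and plasma cell markers summed to 12.4 to 21.8 CPM, against 25.7 to 29.9 CPM, with 7 negative. None of these 2 lists passed. The part of these cells in the values of Jun, Fosb and Dusp1 was not tested.

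Mice labelled Tet2 restored were set against the PBS knockdown mice to follow the same genes once doxycycline was withdrawn. None of the 10 genes passed, and none of the 12137 genes tested did (0% called, the lowest edgeR adjusted p being 0.0502, shared by 215 genes), although 29.2% had an unadjusted edgeR p under 0.05. The number past the adjusted threshold was 1692 without mouse 21, 367 with DESeq2 size factors and 345 with upper quartile factors. The genes with an unadjusted p under 0.05 among the 10 were 2, Ier2 and Fosb. DESeq2 called Ier2 (adjusted p 0.0268), where it called 17.8% of 10957 genes, and limma voom called 0 of the 10 and 0 of all genes. The members' median log2 fold change was 0.36, against −0.0020 over all genes; it was 0.072 without mouse 21, 0.57 without mouse 17 and 0.15 with an offset for transcript length and GC content.

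Ier2 had 130 and 123 CPM in restored-labelled mice 21 and 23, against 65.4, 99.1 and 73.6 CPM in the PBS knockdown mice, a log2 fold change of 0.67 (SE 0.20, edgeR adjusted p 0.0778). Jund had 189 and 232 CPM, against 68.2, 184 and 137 CPM (0.70, SE 0.35, edgeR adjusted p 0.221). Both restored-labelled mice lay above all PBS mice for these 2 genes, as in 24.9% of all genes. The sizes depended on the processing. Over 12 alternatives other than leaving a library out, the log2 fold change ran from 0.18 to 0.76 for Ier2 and from 0.13 to 0.79 for Jund. For Jund the 95% Poisson intervals of mouse 21 (184 to 195 CPM) and mouse 17 (179 to 190 CPM) overlapped. Jun had 116 and 108 CPM, against 69.6, 111 and 70.2 CPM (0.42, SE 0.27), and Junb 117 and 85.2 CPM, against 73.5, 100.1 and 71.2 CPM (0.31, SE 0.20). These ranges overlapped.

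Fosb was the 1 gene with both restored-labelled mice below every PBS mouse, at 43.8 and 21.4 CPM, against 45.6, 107 and 117 CPM (log2 fold change −1.47, SE 0.52, edgeR adjusted p 0.115); 24.5% of all genes lay apart in this direction. Fos had 14.5 and 17.9 CPM, against 8.31, 44.1 and 31.9 CPM (−0.79, SE 0.58). Dusp1 had 41.4 and 21.8 CPM, against 26.6, 72.4 and 50.8 CPM (−0.66, SE 0.41). Neither passed, and both overlapped the PBS mice. Zfp36 had 79.7 and 44.6 CPM, against 39.5, 54.1 and 34.1 CPM (0.55, SE 0.26), and Egr1 49.1 and 41.0 CPM, against 10.9, 62.2 and 12.5 CPM (0.66, SE 0.72). The macrophage markers summed to 25.05 to 50.9 CPM in the restored-labelled mice and the mast cell and basophil markers to 1179 to 1438 CPM, against the PBS ranges given above, and their part was not tested.

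**Figure D4:**
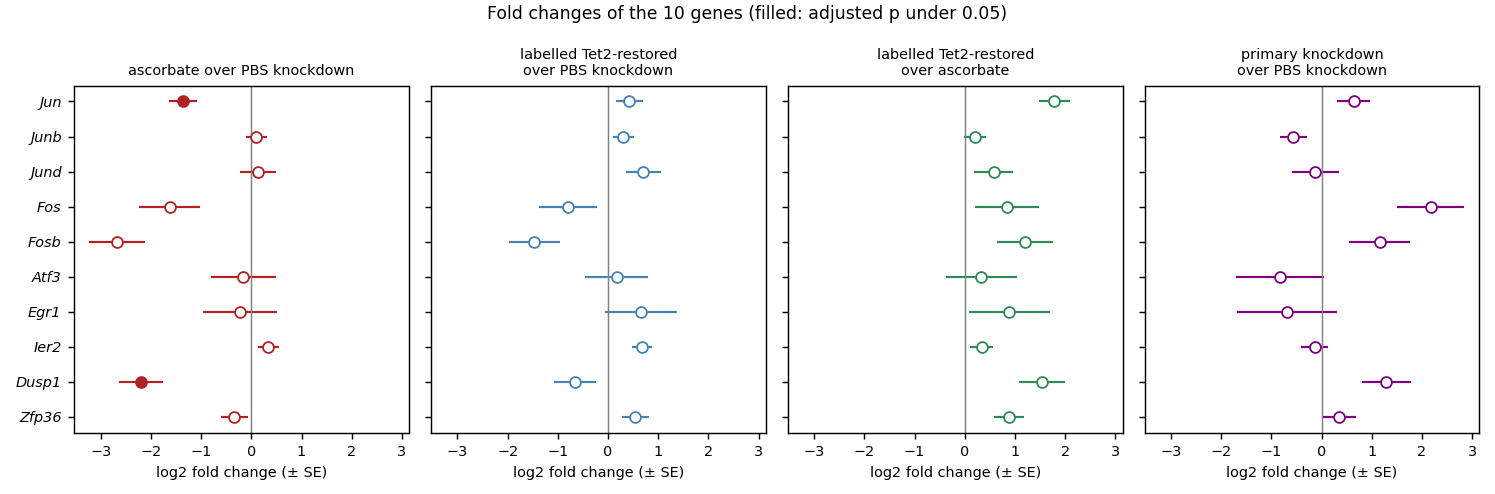
Log2 fold change (± SE) of the 10 genes in the 4 comparisons, the group named first in each panel title over the other; filled points have an edgeR adjusted p under 0.05. Jun and Dusp1 under ascorbate are the filled points, all 10 values lie above 0 for the restored label over ascorbate, and Fos, Dusp1 and Fosb have the highest values in the primary library.

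Set directly against ascorbate, the restored label gave higher values for all 10 genes, but none passed the adjusted threshold. Of all 12137 genes 1 passed, the linker histone gene H1f0 (0.00824% called), while 16.2% had an unadjusted p under 0.05. The ranges were apart for 8 of the 10 (all but Junb and Atf3), each higher in the restored-labelled mice, against 22.8% of all genes. For Fosb and Ier2 the nearest values, those of mice 23 and 28, had overlapping 95% Poisson intervals. The median log2 fold change of the 10 genes was 0.86, against 0.014 over all genes. An unadjusted edgeR p under 0.05 with a higher level was reached by 3 (Jun, Dusp1 and Zfp36), against 8.85% of genes. Without mouse 21, Junb turned to −0.042 and Atf3 to −0.076.

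Jun differed most, with 116 and 108 CPM in the restored-labelled mice, against 42.0 and 23.7 CPM under ascorbate (log2 fold change 1.78, SE 0.31, edgeR adjusted p 0.0916; DESeq2 adjusted p 8.05e-06). Dusp1 had 41.4 and 21.8 CPM, against 12.5 and 9.45 CPM (1.54, SE 0.46, edgeR adjusted p 0.194; DESeq2 adjusted p 0.0137). Zfp36 had 79.7 and 44.6 CPM, against 34.7 and 33.0 CPM (0.88, SE 0.29, edgeR adjusted p 0.213). The edgeR and DESeq2 tests thus disagree on Jun and Dusp1; DESeq2 called 3.97% of 11192 genes, while limma voom called 0 of the 10 and 0.00824% of all. Egr1 (49.1 and 41.0 CPM, against 28.4 and 20.6 CPM) and Fosb (43.8 and 21.4 CPM, against 19.5 and 9.12 CPM) had apart ranges with log2 fold changes of 0.89 (SE 0.80) and 1.21 (SE 0.56).

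The primary leukaemia was compared with the secondary PBS knockdown mice to set a first leukaemia beside retransplanted ones. With a single primary mouse, its variance is borrowed from the replicated groups. None of the 10 genes passed by edgeR, DESeq2 or limma voom, beside 0.115% of 13024 genes called by edgeR, 1.87% of 11760 called by DESeq2 and 2.14% of 13024 called by limma voom. Fos and Dusp1 had an unadjusted edgeR p under 0.05 and were higher, against 4.39% of genes (9.08% in either direction). The primary value lay above all PBS mice for 5 genes (31.8% of all genes) and below them for 2 (29.7%), of which Zfp36 and Atf3 by less than the counting error.

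Fos had 126 CPM in primary mouse 12, against 8.31, 44.1 and 31.9 CPM in secondary PBS mice 16, 17 and 19 (log2 fold change 2.17, SE 0.67, edgeR adjusted p 0.379). Without mouse 16 the value was 1.77 with an edgeR adjusted p of 0.0345, so that 1 low PBS library decided this call. Fosb had 201 CPM, against 45.6, 107 and 117 CPM (1.16, SE 0.60). Dusp1 had 122 CPM, against 26.6, 72.4 and 50.8 CPM (1.29, SE 0.49, edgeR adjusted p 0.476). Jun had 130 CPM, against 69.6, 111 and 70.2 CPM (0.64, SE 0.33). These 4 genes were higher in the primary mouse than in every PBS mouse, whereas the 54.2 CPM of Zfp36 (95% Poisson interval 51.8 to 56.7) could not be told from the 54.1 CPM of mouse 17. Junb, at 55.2 CPM, against 73.5, 100.1 and 71.2 CPM (−0.56, SE 0.27), lay below. Atf3 had 0.199 CPM (7 counts), against a lowest PBS value of 0.202 CPM (5 counts). Egr1 had 17.7 CPM, against 10.9, 62.2 and 12.5 CPM, within the PBS range. Neutrophil markers summed to 44.5 CPM in the primary mouse, against 1.25 to 8.95 CPM in the PBS mice, with 7 of 8 tested positive and 6 at an unadjusted edgeR p under 0.05. Mast cell and basophil markers summed to 1431 CPM, against 478 to 620 CPM (8 of 9 positive, 5 unadjusted), B and plasma cell markers to 87.9 CPM, against 25.7 to 29.9 CPM (4 of 8 positive, 2 unadjusted), and macrophage markers to 41.2 CPM, against 61.0 to 101 CPM (13 of 15 negative, 8 unadjusted). No marker of these lists passed the adjusted threshold in the primary comparison, and the part of these cells in the members' values was not tested. Of all 13024 genes, 4.39% were higher and 611 genes lower at an unadjusted edgeR p under 0.05.

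Genes of the wider immediate early network are given by list, beside the 2.86% of all 12137 genes that passed under ascorbate. Of 15 tested other immediate early transcription factors, 1 passed under ascorbate: Myc, the growth regulator, fell to 182 and 154 CPM, against 351, 341 and 423 CPM in the PBS knockdown mice (log2 fold change −1.16, SE 0.24, edgeR adjusted p 0.0414), in a list with a median of −0.23. Of 7 tested MAP kinase phosphatases, 1 passed and was higher: Dusp16, which acts on JNK and p38, at 20.8 and 19.3 CPM, against 5.08, 6.53 and 7.78 CPM (1.62, SE 0.34, edgeR adjusted p 0.0448). Dusp16 thus rose where Dusp1 fell. Under ascorbate 5 to 87 of all genes passed when a PBS knockdown mouse was left out. Whether Myc and Dusp16 were among them is not given here. No member passed among 12 other AP-1 and bZIP partners (median −0.069), 20 signalling and feedback genes (−0.032), 15 genes of mRNA decay including the ZFP36 family (−0.018), 15 serum response factor partners and coactivators (0.027) or 27 genes of the MAP kinase cascade (−0.078). For the restored label, over PBS knockdown and over ascorbate, and for the primary mouse, no member of these lists passed. The shares of all genes that passed there were 0%, 0.00824% and 0.115%.

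Of 10 listed ERK feedback targets, genes that dampen receptor signalling, 6 stayed under 1 CPM in every library. The 4 tested in the secondary mice were Spry1, Spred1, Spred2 and Phlda1. Under ascorbate all 4 were negative (median −0.66), 2 with an unadjusted edgeR p under 0.05, beside the 12.9% of all genes that were lower at that p. For the restored label over PBS knockdown 3 were positive, 2 of them with an unadjusted edgeR p under 0.05, and 1 negative (median 0.56). Of all 12137 genes, 1710 were higher at that p. For the restored label over ascorbate all 4 were positive with an unadjusted edgeR p under 0.05 (median 1.78), beside the 8.85% of all genes that were higher. Spry1 was low, at 1.44 and 0.556 CPM in mice 21 and 23, against 0.489 and 0.0836 CPM in ascorbate mice 28 and 30. Spred2 had 8.66 and 35.7 CPM, against 3.97 and 8.24 CPM, so its difference came mainly from mouse 23. Spred1 had 22.2 and 16.4 CPM, against 9.41 and 13.9 CPM, and Phlda1 6.43 and 12.9 CPM, against 4.16 and 1.88 CPM. In the primary comparison 5 were tested, of which 2 were positive and 3 negative (median −0.38). None passed the adjusted threshold in any comparison.

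Heat shock genes, which mark stress and tissue handling, are given beside the Fos and Dusp1 values. Hspa1b, an inducible HSP70 gene singled out after its values had been seen, had 1.10 and 1.97 CPM in ascorbate mice 28 and 30, 4.70 and 1.41 CPM in restored-labelled mice 21 and 23, 54.1 CPM in primary mouse 12, and 6.49, 28.6 and 14.9 CPM in PBS knockdown mice 16, 17 and 19. The primary mouse was highest and mouse 17 next, as for Fos and Dusp1. Other listed genes ordered PBS mice 16, 17 and 19 differently. Hsph1 had 145, 103 and 130 CPM, Dnaja1 53.2, 42.3 and 54.6 CPM and Hspa1a 0.0403, 0.698 and 1.04 CPM. Hspa8 (772, 780 and 755 CPM) and Hsp90ab1 (3869, 3925 and 3777 CPM) were highest in mouse 17 among these mice, by a narrow margin. Of 11 tested heat shock genes, 9 were negative under ascorbate (median −0.50), 11 for the restored label over PBS knockdown (−0.80) and 9 for the restored label over ascorbate (−0.25), where all 10 members were positive, while 9 were positive in the primary mouse (0.30); none passed in any comparison. The 13 listed genes summed to 5656 to 6393 CPM under ascorbate, 4714 to 5157 CPM in the restored-labelled mice, 6456 CPM in the primary mouse and 5601 to 5858 CPM in the PBS knockdown mice. Hsp90ab1, a constitutive member, made up most of this sum. Hspb1 was at 0 counts everywhere. The part of handling or stress in the values of Fos, Fosb and Dusp1 was not tested.

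**Figure D5:**
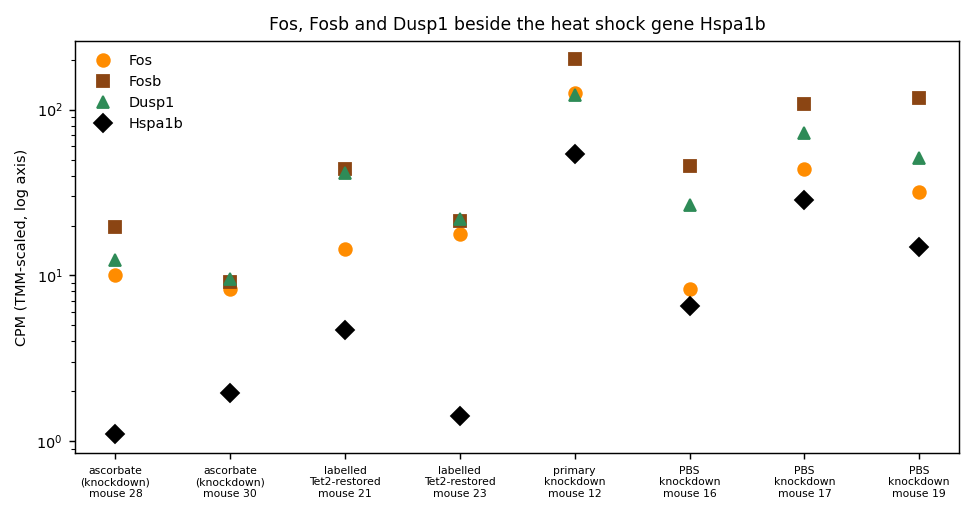
Level of Fos, Fosb, Dusp1 and the heat shock gene Hspa1b in each library, in CPM on TMM-scaled totals (log axis), 1 column per mouse. All are highest in primary mouse 12, at 126, 201, 122 and 54.1 CPM, and Hspa1b is between 1.10 and 4.70 CPM in the 4 ascorbate and restored-labelled mice.

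The genes whose pattern over the 8 libraries was most like the members' mean were Gp5, a platelet glycoprotein gene, Tbcc, a tubulin-folding cofactor, Lipt2, a lipoyltransferase, Tuba1a, an alpha-tubulin, and Cyb5rl. Their root mean square differences from the mean pattern were 0.22, 0.25, 0.26, 0.26 and 0.27 in log2 CPM, out of 8584 candidate genes. Gp5 had 103 and 83.7 CPM under ascorbate, 153 and 128 CPM in the restored-labelled mice, 183 CPM in the primary mouse and 126, 165 and 167 CPM in the PBS knockdown mice.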

How the data were processed

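RNA from the splenic AE9a+ cells of 8 mice was enriched with oligo-dT beads and made into NEXTflex libraries, per the labels' protocols. STAR, featureCounts and DESeq2 with mm10 (GRCm38) were used, per the submitters' processing notes; versions and the strand setting are not given in the sources used here. Raw counts and FPKM values, both deposited by the authors, are listed by gene symbol, the FPKM values rounded to hundredths; FPKM was used for levels between genes, counts for every test. Total counts (18.1 to 34.2 M) limit precision; Poisson intervals (95%) cover counting error only. CPM, fold changes and SE were computed with edgeR 4.0.16 (R 4.3.3): TMM factors, filterByExpr with a minimum count of 10, robust quasi-likelihood fit, Benjamini-Hochberg adjustment over all genes, threshold 0.05. The 3 comparisons of secondary mice shared 1 fit of 7 libraries; the primary comparison used all 8. The script was tested on simulated data. Replicates are separate mice. The members, gene lists and tests were chosen with earlier results of these data known. Named besides the 10 genes and Tet2 are up to 4 members past the threshold per list and the 5 genes most like the members. Singled out after their values were seen are Hspa1b, Hspa1a, Hspa8, Hsph1, Dnaja1, Hsp90ab1, H1f0, Ergic1, Kit, Runx1t1, Cd34, Mpo, Nkg7 and Dcn. So are the 4 tested ERK feedback targets and the markers at or near 0. Of the 10 genes, 9 had a recovered length and GC content; Atf3 had no offset. Junb, Jun, Jund, Dusp1 and Zfp36 share exonic bases with an opposite-strand gene (Prdx2, Junos, Gm11175, Ergic1, Gm44710) in GENCODE vM21. Alternatives were other library factors, DESeq2 1.42.0, limma 3.58.1 on counts and on log2(FPKM + 0.1) or log2(FPKM + 1), other filters, other sets of libraries, a length and GC offset, and each library left out.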

Additional observations from a re-analysis of the deposited data

How the results depend on the processing

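No paired analysis was possible because the groups share no mouse numbers. Of 733 values of single genes under the alternatives, 677 kept their sign and their side of the threshold, 20 came to pass it, 11 ceased to and 25 turned sign; the cause was not tested. Genes called under ascorbate numbered 347, against 1339 by DESeq2, 1105 by limma voom, 1498 with no filter, 855 with only the groups compared, 564 with the length and GC offset, and 2 to 796 with a library left out; of the 10 members 1 was called with all 8 libraries and 0 to 3 with a library left out. For the restored label over PBS knockdown 0 genes were called, against 367 with DESeq2 size factors, 345 with upper quartile factors, 1951 by DESeq2, 2207 with no filter, 536 with at least 1 CPM, and 0 to 1692 with a library left out (1692 without mouse 21); members numbered 1 by DESeq2 and 2 with no filter. For the restored label over ascorbate 1 gene was called, against 444 by DESeq2, 582 with no filter, 3 on FPKM with either pseudocount, with all 8 libraries or with the offset, 0 with only the groups compared, and 0 to 5 with a library left out; members numbered 2 by DESeq2 and 3 with no filter. In the primary comparison 15 were called, against 220 by DESeq2, 279 by limma voom, 8 on log2(FPKM + 0.1), 467 with no filter, 23 with the offset, and 6 to 45 with a library left out; members numbered 1 with no filter and 0 to 1 with a library left out. Library totals moved the median of all genes under ascorbate to −0.12, with 83 of 383 calls higher (21.7%), against 132 of 347 (38.0%) with TMM, and for the restored label over ascorbate to 0.13. Under ascorbate Junb turned to −0.012 on library totals, to −0.24 with the offset and ran from −0.029 to 0.27 with a library left out (lowest without mouse 28); Jund to −0.24 with the offset, and ran from −0.18 (without mouse 16; −0.15 without mouse 30) to 0.46; Ier2 to −0.057 with the offset; and Egr1 to 0.58 by limma voom, 0.23 and 0.14 on FPKM (pseudocounts 0.1 and 1) and ran from −0.61 to 1.05 (without mouse 17). For the restored label over PBS knockdown Atf3 turned to −0.16 by limma voom, and ran from −0.23 (without mouse 21; −0.10 without mouse 16) to 0.46, and Junb to −0.13 with the offset; over ascorbate Junb ran from −0.042 to 0.40 and Atf3 from −0.076 to 0.61, lowest without mouse 21. In the primary comparison Egr1 turned to 0.15 by limma voom and ran from −1.04 to 0.59 with a library left out; Jund to 0.0090 and 0.0072 on FPKM, 0.18 with the offset, and from −0.39 to 0.21; and Ier2 to 0.20 with the offset and from −0.22 to 0.052, each highest without mouse 17. Depth limits Atf3, and groups of 2 and 3 mice limit every call.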
